A study of Gossypium hirsutum with 24 samples.

Results

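Leaf-preferential transcripts of upland cotton (Gossypium hirsutum) were taken as the probe sets whose level in young leaf stood well above that in every other tissue on an Affymetrix Cotton Genome array. A probe set is a group of short probes read together as 1 transcript measurement, and its deposited value is on the log2 scale, so that a difference of 1 is a doubling. A probe set was a member where its median over the leaf arrays lay at least 2 above the highest of the 7 other group medians and where its 3 anther medians differed by under 1. It found 97 members among 23977 probe sets that were not controls, or 0.405%. The members were thus selected on their leaf, anther, bud and seedling levels, and the height of leaf over the rest is described without a test.

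The study looked for genes active in the anther, and leaf was one of its vegetative tissues. Each of 8 groups had 3 arrays, named by the series as biological replicates, with nothing said of the plants they came from. The p-values below therefore measure the spread between these samples. Young leaf came from plants a month old, and seedlings were 5 days past germination. Flower buds of 5, 7 and 8 mm were dissected into anthers, the organs that form pollen, and the rest of the bud, called buds here. The series names stages before, during and after meiosis, but which bud size stands for which stage is not given in the labels, nor is a cultivar, genotype or treatment.

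As background, a leaf blade is mainly photosynthetic mesophyll under an epidermis with stomata and hairs, and its RNA is rich in transcripts for light capture and carbon fixation. A seedling holds young green cotyledons together with hypocotyl and root. A cotton bud without its anthers still holds sepals, petals and the pistil, of which the sepals are green, whereas anthers consist mostly of wall layers, tapetum and developing pollen. Which of these functions the members serve cannot be said here, because the annotation used pairs 4 members with a locus number and none with a product name. The other members are given by their probe set identifiers. For the same reason the label could not be checked against leaf markers, and the planned lists of photosynthesis, defence, cuticle and other genes could not be searched. In whole tissues, fewer cells of a type and less RNA per cell cannot be told apart.

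Background was taken as 2.23, the 95th percentile of 69 control probe sets for which no target was added, per the labels. Between 64.5% and 67.1% of probe sets lay above it on each array. All 97 members exceeded it on leaf replicates 2 and 3 and 96 did on leaf replicate 4. Testing required 3 or more of the 24 arrays above background, which held for 96 members and 17666 probe sets in all. For 9 of these 96 members, the filter was passed only because of the leaf arrays.

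**Figure D1:**
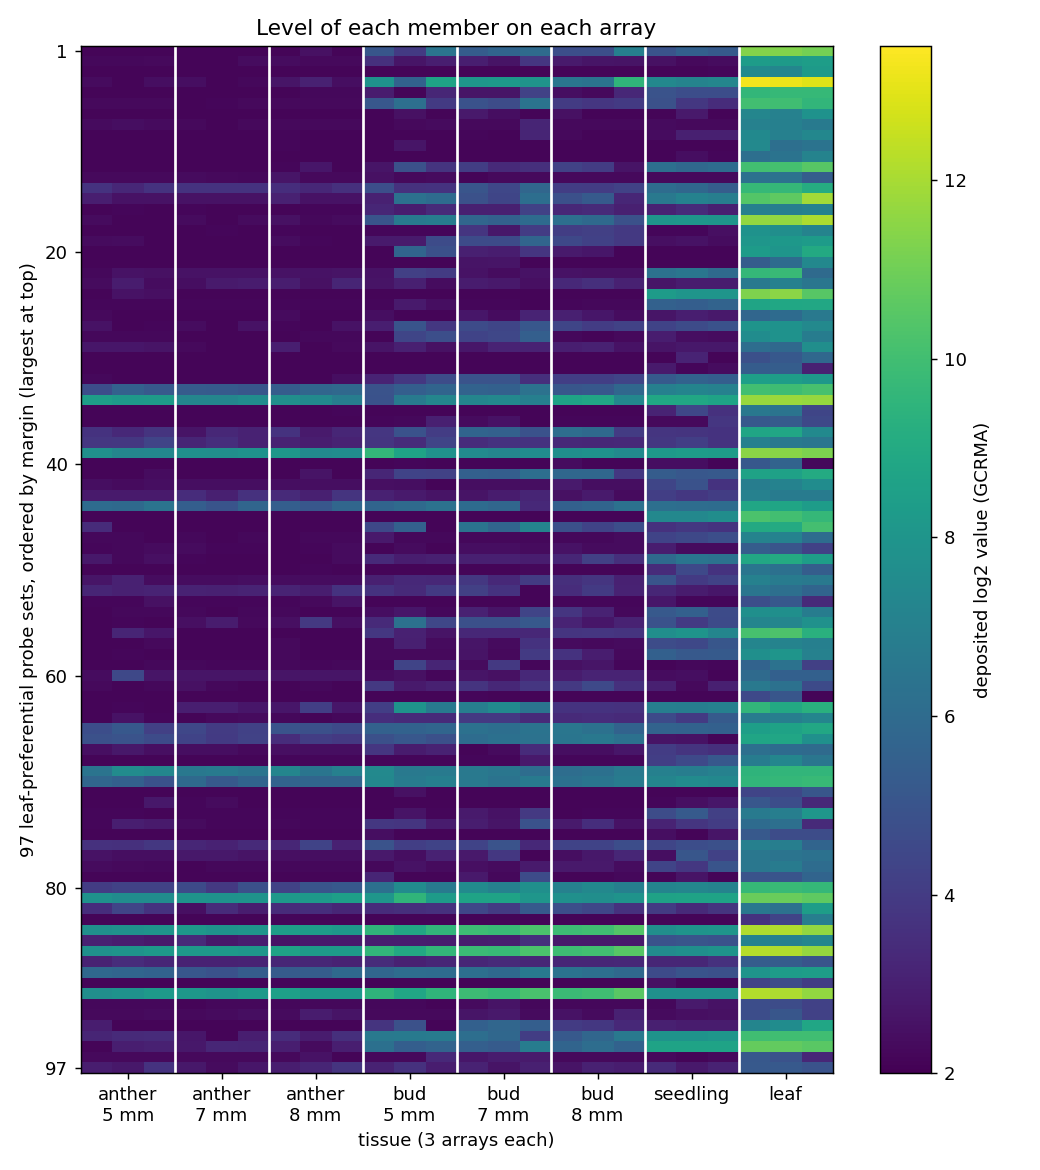
Deposited log2 value of each of the 97 members (rows, ordered by how far the leaf median exceeded the highest other median) on each of 24 arrays (columns, 3 per tissue). The leaf columns are bright by the choice of members, and the other columns differ among members, from dark everywhere to medium levels in seedling or buds.

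The leaf medians of the members ran from 4.26 to 13.2, with a median of 7.13. The margin over the highest other tissue ran from 2.02 to 5.65, with a median of 2.59. Just inside the limit lay Ghi.5310.1.S1_x_at, GhiAffx.49638.1.A1_at and GhiAffx.2499.1.A1_s_at, with margins of 2.02, 2.04 and 2.05. Just outside it lay GhiAffx.7606.1.S1_at, GhiAffx.29821.1.S1_at and Ghi.5529.2.S1_s_at, with 1.99, 1.98 and 1.97. A further 28 probe sets met the leaf margin but differed by 1 or more between anther sizes and so were not members. On 90 of the 97 members every leaf array exceeded every other array, and on 35 it did so by at least 2.

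Only 3 members were at or below background on all 21 other arrays, namely GhiAffx.4738.1.S1_at, Ghi.5186.1.A1_at and Ghi.3992.1.A1_at, which are named because they are so few. A value above background does not show expression, since some members repeated a low value of their own just above that cutoff. For example, GhiAffx.25348.1.A1_at had a median of 2.43 in every anther and bud group, yet exceeded background on all 9 anther arrays and on 8 bud arrays. The counts that follow share this limit. Seedling arrays were all above background for 74 members, bud arrays for 53 and anther arrays for 34. Conversely, 27 members were at or below background on all 9 anther arrays, 13 on all 9 bud arrays and 7 on all 3 seedling arrays. The highest median after leaf was in seedling for 46 members, in buds for 39 and in anthers for 5, and for 7 the medians of all 3 tissues tied at the top. This order is loose, since the highest median led the next tissue by under 1 in 61 members and lay at or below background in 8. Seedling led by at least 1 in 24 members, buds in 12 and anthers in 0. The 5 with anthers next were Ghi.3769.1.A1_at, Gra.382.1.A1_at, Gra.2505.1.A1_at, Ghi.7544.2.S1_s_at and Ghi.5310.1.S1_x_at. They too are named for their small number and after their values were seen.

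The 6 members without a locus number that had the widest margins were all low in anthers, at no more than 3.03 on any anther array. They differed from one another in seedlings and buds. Gra.610.1.S1_x_at, with the largest margin of 5.65, stood at 11.37, 11.34 and 11.10 in leaf, at 4.95, 5.54 and 5.27 in seedlings and between 3.95 and 6.95 in buds. Its anther arrays were at or below background except for 2.51 in 8 mm anther replicate 6. GhiAffx.61976.1.S1_at stood at 8.37, 8.27 and 8.41 in leaf and between 2.16 and 3.83 everywhere else. GhiAffx.4738.1.S1_at gave 7.51, 7.28 and 8.26 in leaf and no value above 2.18 on any other array.

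Ghi.10692.1.S1_s_at stood at 13.28, 13.17 and 12.92 in leaf, at 7.36, 7.16 and 7.26 in seedlings, between 5.60 and 9.51 in buds and between 2.16 and 3.03 in anthers. In both Ghi.10692.1.S1_s_at and Gra.610.1.S1_x_at, 5 mm bud replicate 3 was the lowest bud array and 8 mm bud replicate 6 the highest. GhiAffx.12956.1.S1_at stood at 9.63, 9.73 and 9.72 in leaf and at 4.93, 4.71 and 4.73 in seedlings. Its buds lay between 2.17 and 4.27 and its anthers between 2.16 and 2.25. GhiAffx.44018.1.S1_at stood at 10.01, 9.98 and 9.58 in leaf, between 3.82 and 6.38 in buds and at 4.84, 3.84 and 3.44 in seedlings. The seedling and bud arrays of this last probe set overlapped, and its anther arrays reached no more than 2.31.

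The 4 members with a locus number followed separate patterns. LOC107904848 was present in every tissue. It stood at 11.50, 11.48 and 11.24 in leaf, against 8.17, 8.37 and 8.30 in seedlings, a range of 7.29 to 9.61 over buds and a range of 7.26 to 8.10 over anthers. LOC107927057 was high in both vegetative tissues and nowhere else. It stood at 10.22, 10.03 and 9.65 in leaf and at 7.38, 7.38 and 7.66 in seedlings, while all bud and anther arrays lay at 2.16.

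LOC107913353 was shared by leaf and buds and nearly missing from seedlings. It stood at 8.77, 8.78 and 7.75 in leaf and at 2.61, 2.54 and 2.16 in seedlings. Its bud arrays lay between 4.83 and 6.61 and its anther arrays between 3.44 and 4.93. LOC107928969 stood at 4.95, 4.98 and 5.72 in leaf and above background on 4 other arrays, with 3.19 in 5 mm bud replicate 2, 2.77 and 4.64 in 7 mm bud replicates 1 and 3, and 2.59 in seedling replicate 6.

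**Figure D2:**
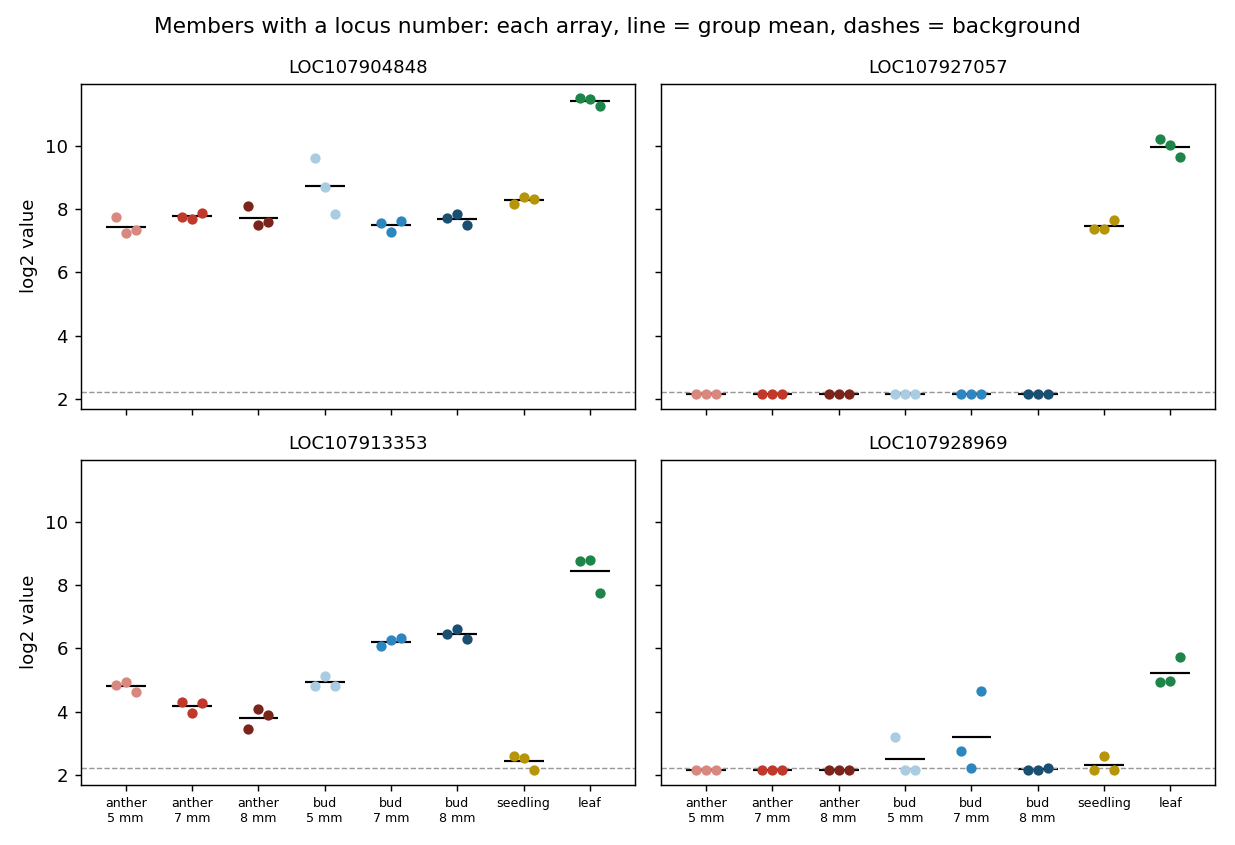
Deposited log2 values of the 4 members with a locus number on each array (points, 3 per tissue), with group means (lines) and background (dashes, 2.23). LOC107904848 lies above 7 in every tissue, LOC107927057 is high in leaf and seedling only, LOC107913353 is lowest in seedling, and LOC107928969 is near background outside leaf apart from single arrays.

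Names ending in s_at or x_at, which mark probe sets that can bind several related transcripts, belonged to 31 members, or 32.0%, beside 48.0% of all probe sets tested. The identifier prefixes Ghi and GhiAffx covered 33 and 40 members, and Gra, GraAffx and GarAffx covered 14, 8 and 2. These shares are a description and were not tested.

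Some members cannot be taken as separate transcripts. In 3 cases a pair shared an identifier up to its cluster number, namely Gra.610.1.S1_x_at with Gra.610.2.A1_at, Ghi.1247.2.S1_s_at with Ghi.1247.2.A1_x_at, and GarAffx.24961.1.S1_s_at with GarAffx.24961.2.S1_s_at. The last pair and Gra.2810.2.A1_s_at differed from one another by no more than 0.254 on any array. These 3 stood alone in being that alike, within 0.5 on every array, among the 27 members that were above background on all 21 other arrays. They were singled out after their values were seen.

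The leaf arrays did not agree for all members. Leaf replicate 4 lay over 1 below both other leaf arrays in 15 members and over 1 above both in 8, whereas neither leaf replicate 2 nor leaf replicate 3 stood that far from both others in any member. Over the 12701 tested probe sets whose leaf mean lay at least 2 above background, leaf replicate 4 was that far below in 3.20% and above in 1.86%. The widest gap among members was in Ghi.10462.1.S1_at, singled out for it, which gave 9.64 and 9.77 on leaf replicates 2 and 3 and 5.97 on leaf replicate 4, below the 6.53 of a seedling array. Ghi.3992.1.A1_at went the other way, with 3.69, 4.33 and 6.94. Membership itself changed with the leaf arrays used. Without leaf replicate 4 the rule found 102 members, 94 of them among the 97. Without leaf replicate 2 it found 97, of which 77 were shared, and without leaf replicate 3 it found 90, of which 74 were shared. The comparisons that follow do not contrast leaf with anything, but leaf arrays enter them through the estimate of spread and through the filter that decided which members were tested.

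**Figure D3:**
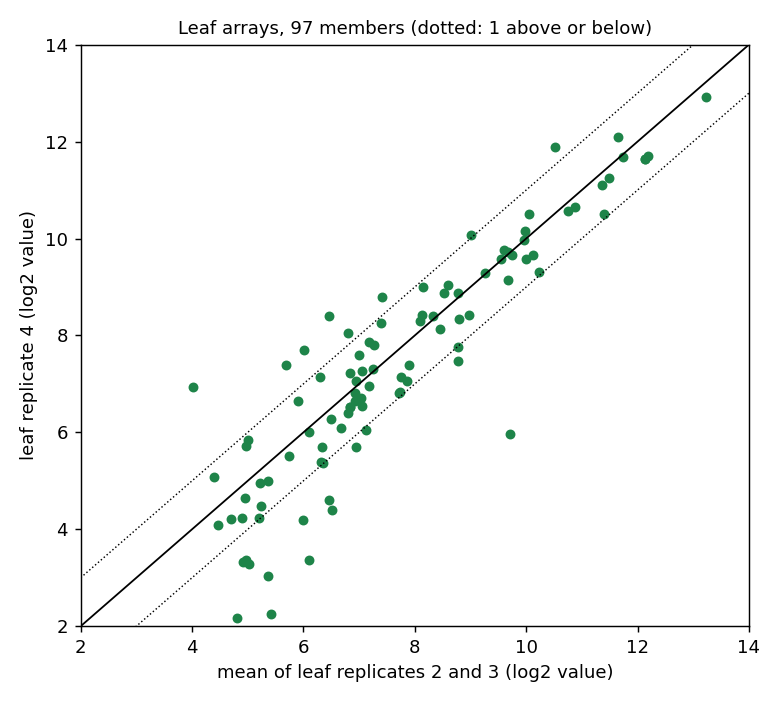
Level of the 97 members on leaf replicate 4 against the mean of leaf replicates 2 and 3 (both log2 values), with the line of equal values and dotted lines at 1 above and below. Most points lie between the dotted lines, with 15 members over 1 below both other leaf arrays and 8 over 1 above both.

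The order of the other tissues was not fixed by the rule, but their levels entered it. It capped the highest of them below leaf and limited the anther range, a limit that probe sets at their floor in all anthers always meet. The probe sets set beside the members did not have to meet these conditions. The order was tested with limma, a linear model fitted to all tested probe sets. Its p-values were adjusted over all of them by the Benjamini-Hochberg method. Members are called here where the adjusted p was under 0.05 and the difference 1 or more. Seedlings were first set against the 3 bud groups together. Of the 96 members tested, 31 were higher in seedlings, or 32.3%, beside a background of 14.7% of all probe sets. Another 11 were lower, or 11.5%, beside 14.8%. The 9 members tested only because of their leaf values are in this base. With the filter applied to the other 21 arrays, 87 members were tested and the shares were 35.6% higher, beside 14.9%, and 12.6% lower, beside 15.1%. All seedling arrays lay above all bud arrays in 30 members, beside 21.4% of all probe sets, and below them in 9, beside 21% of all. The median difference was 0.27 over the members and -0.00 over all probe sets tested.

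Among the members higher in seedlings, differences ran from 1.07 to 5.93. Gra.2978.1.S1_at stood at 8.29, 7.98 and 8.00 in seedlings and at 2.16 on all bud arrays, at least 57.9-fold higher (adjusted p = 3.76e-17). LOC107927057, with the values above, was at least 37.7-fold higher (adjusted p = 1.69e-19). The bud arrays of each held that probe set's own lowest value throughout and have no measured spread, so these differences are approximate. GhiAffx.12956.1.S1_at, of the widest margins, was higher by 1.93 (SE 0.28, adjusted p = 7.38e-06), with no overlap between seedling and bud arrays.

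Among the members lower in seedlings, LOC107913353 differed most, by -3.43 (SE 0.18, adjusted p = 1.03e-11). GarAffx.24961.1.S1_s_at came next. It stood at 7.57, 7.74 and 7.89 in seedlings and between 8.94 and 10.50 in buds, a difference of -2.09 (SE 0.16, adjusted p = 2.07e-09). The 2 probe sets that read almost as it does, GarAffx.24961.2.S1_s_at and Gra.2810.2.A1_s_at, were also among the 11, at -1.92 and -2.01. LOC107904848 differed by 0.32 and LOC107928969 by -0.33, neither with a call. Gra.610.1.S1_x_at and Ghi.10692.1.S1_s_at, at -0.18 and -0.37, had no call either.

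The seedling comparison depended on how arrays were scaled. Control transcripts added before hybridisation (14 probe sets) had a mean level of 9.80 ± 0.28 (SD, n = 3) on seedling arrays. On bud arrays of 5, 7 and 8 mm the level was 8.84 ± 0.32, 8.64 ± 0.29 and 8.74 ± 0.28. Scaling to them moved the median difference of all probe sets to -0.84 and left 11 members higher, beside 6.19% of all probe sets, and 18 lower, beside 42.6%. Scaled values under 3.06 were set to 3.06, so differences at low levels shrank. GhiAffx.12956.1.S1_at lost its call under it, at 0.78, while Gra.610.1.S1_x_at, Ghi.10692.1.S1_s_at and GhiAffx.44018.1.S1_at were then lower in seedlings, by -1.24, -1.43 and -1.80. The last of these was also lower, at -1.14, without seedling replicate 5.

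**Figure D4:**
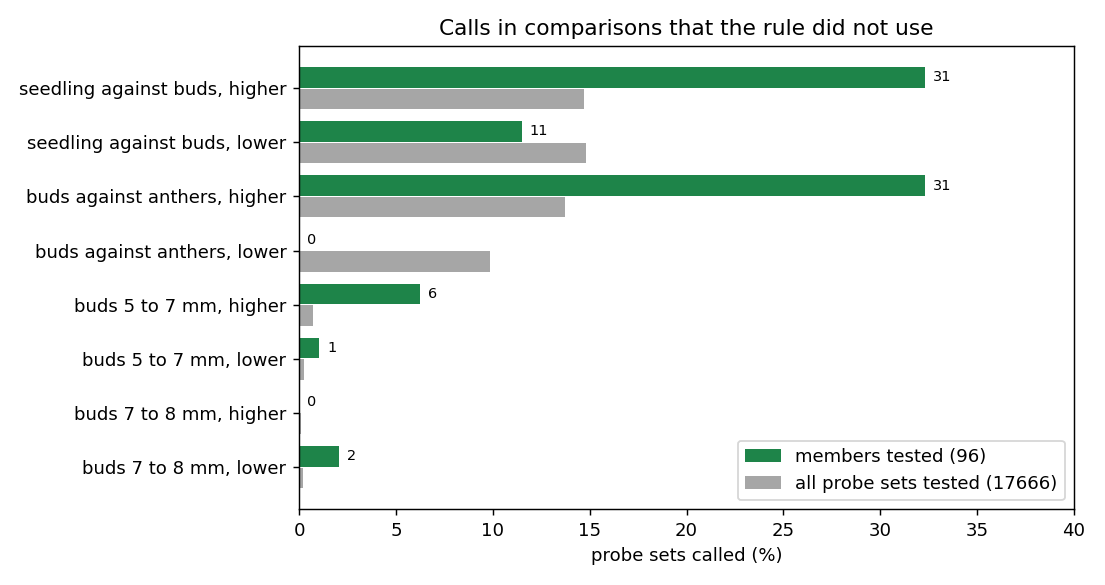
Share of the 96 members tested (green, with the number of members) and of all 17666 probe sets tested (grey) that were called in each comparison and direction, in percent. Members were higher in seedlings than in buds in 31 cases and higher in buds than in anthers in 31, and none was called lower in buds than in anthers.

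Buds were then set against anthers, over the 3 sizes together, so that this comparison shares its bud arrays with the one before. Of the 96 members, 31 were higher in buds, or 32.3%, beside 13.7% of all probe sets, and 0 were lower by limma, beside 9.83%. At an unadjusted p under 0.05 with no minimum difference, 49 were higher and 1 was lower in buds. The share of all probe sets at that threshold was not counted, so these numbers are not read as a trait of the members. With the filter on the 21 arrays other than leaf, the 31 higher were 35.6% of 87 members, beside 13.9%. The arrays of the groups did not overlap in 23 members with buds higher, beside 7.92%, and in 0 with buds lower, beside 10.1%. The median difference was 0.35 over members and -0.11 over all probe sets tested. The rule kept members whose anther medians differed by under 1 between sizes. With the 28 tested probe sets that this condition had removed put back, an alternative chosen after the data were seen, 45 of 124 were higher and 2 lower in buds.

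Differences ran from 1.07 to 5.20. The largest was that of Ghi.10692.1.S1_s_at, 5.20 (SE 0.38, adjusted p = 9.15e-10). GhiAffx.26756.1.S1_s_at followed with 3.59 (SE 0.21, adjusted p = 3.11e-11). It stood between 4.87 and 6.81 in buds and between 2.16 and 2.51 in anthers, with 11.66, 11.63 and 12.09 in leaf and 7.99, 8.05 and 8.01 in seedlings. Bud and anther arrays did not overlap for these 2, nor for Gra.610.1.S1_x_at at 3.23 and GhiAffx.44018.1.S1_at at 2.49, both called.

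LOC107913353 was higher in buds by 1.60 (SE 0.13, adjusted p = 4.30e-09), although 5 mm buds and 5 mm anthers overlapped. LOC107904848, at 0.31, and LOC107928969, at 0.48, had no call, and LOC107927057 was at background in both tissues. The added controls stood at 9.29 ± 0.30, 9.54 ± 0.43 and 9.91 ± 0.46 (SD, n = 3 each) on the anther arrays, by rising size, and so above the bud arrays. Scaled to them, 33 members were higher in buds, beside 26.7% of all probe sets, and LOC107904848 was among them at 1.16. The median difference was then 0.48 over members and 0.43 over all probe sets, instead of 0.35 and -0.11. How far members stood from all probe sets in this comparison thus also depended on how arrays were scaled.

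Within buds, size was compared in steps. From 5 to 7 mm, 6 members rose, or 6.25%, beside 0.730% of all probe sets, and 1 fell, or 1.04%, beside 0.232%. With the filter on arrays other than leaf, the rises were 6.90% of 87 members, beside 0.751%. All 7 mm arrays lay above all 5 mm arrays in 13 members, beside 5.85%, and below them in 3, beside 6.72%. LOC107913353 rose from 4.83, 5.12 and 4.83 to 6.08, 6.26 and 6.31, by 1.29 (SE 0.23, adjusted p = 0.00638), and its call held when any of these 6 arrays was left out, but ended with spike-in scaling (1.49, adjusted p = 0.0653) and when no other array was fitted (adjusted p = 0.169). Ghi.8476.1.S1_x_at rose from 4.49, 5.56 and 2.16 to 6.38, 5.76 and 7.18, by 2.37 (SE 0.58, adjusted p = 0.0398). Gra.1633.1.A1_s_at rose from 3.75, 4.86 and 2.16 to 5.51, 5.80 and 5.43, by 1.99 (SE 0.46, adjusted p = 0.0329).

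In both of the last 2 probe sets, 5 mm bud replicate 4 lay below background and leaf replicate 4 was the highest leaf array. Without 5 mm bud replicate 4 their differences were 1.41 and 1.27, with no call. The call of Ghi.8476.1.S1_x_at also went when bud replicate 2 of 5 mm (2.58), 1 of 7 mm (2.40) or 3 of 7 mm (2.00) was left out. It was lost as well in the limma fit without the leaf arrays (adjusted p = 0.0519) and with no filter (adjusted p = 0.0681). The call of Gra.1633.1.A1_s_at went with bud replicate 2 of 5 mm (2.07), 1 of 7 mm (2.02) or 2 of 7 mm (1.88) left out, and with no filter (adjusted p = 0.0552). LOC107904848 fell from 9.61, 8.69 and 7.83 to 7.56, 7.29 and 7.61, by 1.23 (SE 0.29, adjusted p = 0.0330). Leaving out bud replicate 2 of 5 mm (-0.78), 1 of 7 mm (-1.26) or 2 of 7 mm (-1.13) ended this call, as did a fit with no filter (adjusted p = 0.0528).

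The other 3 members that rose were GhiAffx.13852.1.S1_at, by 1.78, GhiAffx.42418.1.S1_at, by 1.56, and GhiAffx.22085.1.A1_at, which was at background in 5 mm buds and at least 2.45-fold higher at 7 mm. They are added here after their values were seen. Only 3 members rose when bud replicate 2 of 5 mm was left out. The number that fell was 0 with bud replicate 2 of 7 mm left out and 2 with its replicate 3 left out. In a limma fit of these 6 arrays alone, 0 members were called in either direction, beside 0.0396% of all probe sets rising and 0.00566% falling.

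From 7 to 8 mm, 2 members fell, or 2.08%, beside 0.175%, and 0 rose by limma, beside 0.0736%. At an unadjusted p under 0.05, 12 were lower and 4 higher, again with no share of all probe sets counted beside them. All 8 mm arrays lay below all 7 mm arrays in 15 members, beside 7.13%, and above them in 4, beside 4.29%. Ghi.7876.1.S1_s_at fell from 6.93, 7.50 and 6.42 to 3.67, 3.68 and 3.64, by 3.28 (SE 0.60, adjusted p = 0.0183). GhiAffx.4043.4.S1_s_at fell from 4.31, 4.43 and 5.50 to 2.27, 2.16 and 2.27, by 2.51 (SE 0.46, adjusted p = 0.0183). In both probe sets all 8 mm arrays lay below all 7 mm arrays.

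The call of Ghi.7876.1.S1_s_at ended when bud replicate 1 (-3.29) or 2 (-3.01) of 7 mm, or 4 (-3.29) or 5 (-3.29) of 8 mm, was left out. That of GhiAffx.4043.4.S1_s_at ended with replicate 3 of 7 mm (-2.14), 4 of 8 mm (-2.53) or 5 of 8 mm (-2.48) left out. With any one 7 mm array left out 1 member fell, and with replicate 4 or 5 of 8 mm left out 0 did. In 5 mm buds, bud replicate 2 was low in both, at 4.14 against 7.90 and 6.71 in Ghi.7876.1.S1_s_at and at 2.16 against 4.42 and 4.74 in GhiAffx.4043.4.S1_s_at.

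The excess of buds over anthers was also compared between sizes, as an interaction term. It changed from 5 to 7 mm in 8 of the 96 members, beside 7.73% of all probe sets, and from 7 to 8 mm in 2, beside 3.99%. The rule had limited how far anther levels of a member differ between sizes.

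**Figure D5:**
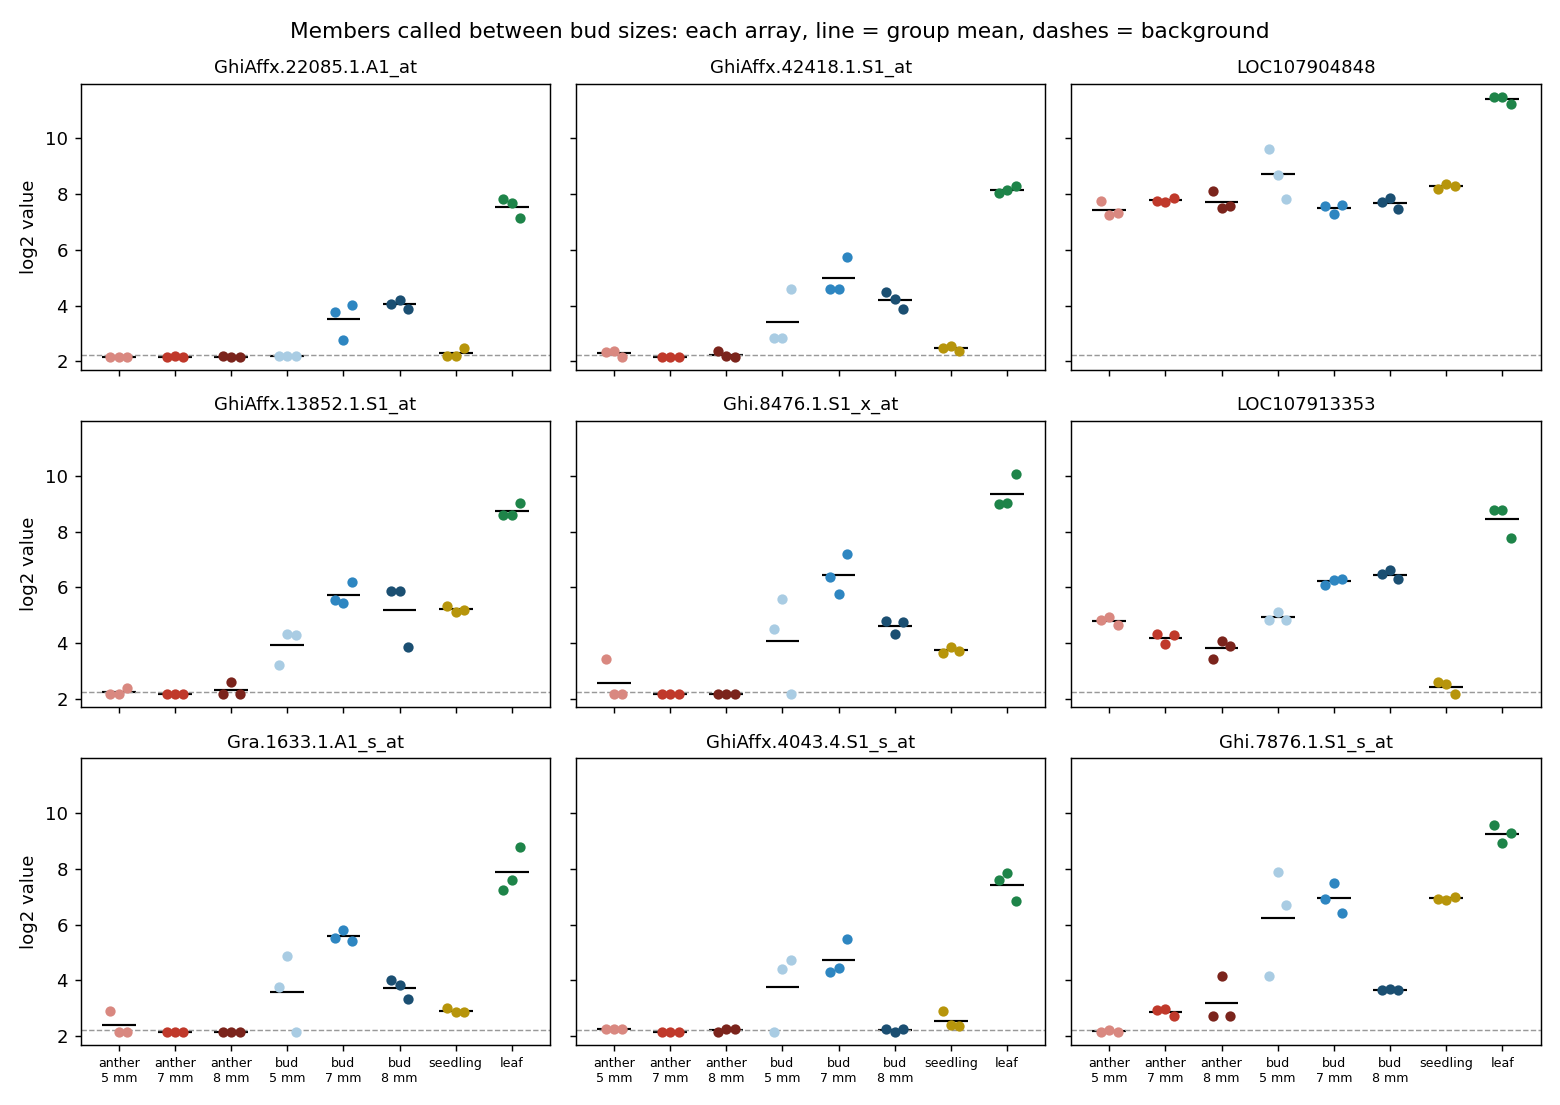
Deposited log2 values, on each array (points, 3 per tissue), of the 9 members called between bud sizes, with group means (lines) and background (dashes, 2.23). Of these, 7 were called between 5 and 7 mm, and Ghi.7876.1.S1_s_at and GhiAffx.4043.4.S1_s_at between 7 and 8 mm, where all 8 mm arrays lie below all 7 mm arrays.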

How the data were processed

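RNA of 24 samples was hybridised to Affymetrix Cotton Genome arrays. The authors deposited log2 values, which the submitters' processing notes credit to GCRMA without naming a version. Values recur near the lowest of the table, 2.16, so small levels are compressed, and 43 members held their own lowest value on at least 3 arrays. Some members instead repeated a value slightly above their lowest, which this count leaves out. No further normalization was applied. The table held 24132 probe sets, of which 155 controls were left out of the tests.

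limma 3.58.1 (R 4.3.3) fitted a mean for each of the 8 groups over all 24 arrays, with two-sided tests, and was checked on simulated data. The simulation had no floor and placed its differences in seedlings at higher levels only. It therefore does not cover members near the floor. Where 1 side of a comparison was at background throughout, a lower bound of the fold is given, against the higher of background and the measured values. Members, lists and comparisons were chosen with earlier results of these data known. Named were all members with a locus number, the 6 others with the widest margins, the 2 largest calls per direction and comparison, and those nearest the limit. The platform annotation listed 743 probe sets, 697 with 1 symbol. No sequence or coordinate was used, since the annotation names no build, and scan dates were not analysed here. Figures were drawn with matplotlib 3.10.9.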

Additional observations from a re-analysis of the deposited data

Results flagged for a closer look

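The difference between buds and anthers was tested for change with bud size, by an interaction term in the same limma fit. Of the 96 members tested, 8 passed from 5 to 7 mm and 2 from 7 to 8 mm, beside 7.73% and 3.99% of all probe sets. Of the members named above, 6 passed, and their excess of buds over anthers is given here at both sizes. All 6 were already called between bud sizes on the same arrays, and the rule limited their anther change. Their results are thus no separate support. Except for LOC107913353, those calls were lost when certain single arrays were left out. For LOC107913353 (GhiAffx.7659.1.S1_a_at) the bud excess was 0.13 at 5 mm and 2.03 at 7 mm, a change of 1.91 (adjusted p = 0.000947). For Ghi.8476.1.S1_x_at it went from 1.495 to 4.28, a change of 2.78 (adjusted p = 0.0345), and for Gra.1633.1.A1_s_at from 1.18 to 3.42, a change of 2.24 (adjusted p = 0.0339). LOC107904848 (GhiAffx.40054.1.S1_at) went from 1.27 at 5 mm to -0.29 at 7 mm, a change of -1.55 (adjusted p = 0.0192). From 7 to 8 mm, Ghi.7876.1.S1_s_at went from 4.08 to 0.47, a change of -3.60 (adjusted p = 0.0169), and GhiAffx.4043.4.S1_s_at from 2.59 to 0.00, a change of -2.58 (adjusted p = 0.0244).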

How the results depend on the processing

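The number of members was 189 with a leaf margin of 1.5, 30 with a margin of 3 and 35 where every leaf array had to lie 2 above every other array. It ran from 90 to 102 when 1 leaf array was left out, and 55 of the 97 were kept among the 77 members found after spike-in scaling. Scaled values under 3.06 were set to 3.06, which is above the background of 2.23. Members low in leaf could then not keep a margin of 2, so part of this loss was fixed by the floor. With 1 array left out, members called higher and lower in seedlings numbered 29 to 31 and 8 to 12. The share of all probe sets was not counted for any fit with 1 array left out. With spike-in scaling the members numbered 11 and 18, beside 6.19% and 42.6% of all probe sets. A stricter threshold (differences of 2 or more with an adjusted p below 0.01) gave 16 and 3, beside 6.79% and 6.83%. Lower calls numbered 5 without s_at and x_at probe sets, where 65 members were tested, and 6 with the replicate block. Members higher in buds than in anthers numbered 30 to 33 with 1 array left out. They numbered 12 at the stricter threshold, beside 6.8%, and 15 without s_at and x_at probe sets, beside 14.4%. Lower ones numbered 0 in each of these, 1 with the adjusted p alone and 2 with the anther condition lifted. From 5 to 7 mm, rises numbered 3 to 6 and falls 0 to 2 with 1 array left out. Rises numbered 2 with spike-in scaling, 2 with the replicate block and 0 at the stricter threshold or with the compared arrays alone. Falls numbered 0 with no filter, with spike-in scaling, at the stricter threshold and with the compared arrays alone, 2 with array weights and 4 without the 5 arrays that stood apart in earlier results (anther replicate 1 and bud replicate 2 of 5 mm, bud replicate 3 of 7 mm, replicate 6 of 8 mm buds, and replicate 4 of leaf). From 7 to 8 mm, falls numbered 0 to 2 with 1 array left out, 4 with array weights, and 0 with the compared arrays alone, at the stricter threshold, without s_at and x_at probe sets and with the replicate block, and rises numbered 2 with array weights and 1 without the 5 arrays. The cause of these changes was not tested, apart from the smaller number of probe sets or the tighter threshold where the alternative sets it.

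Whether equal replicate numbers mark paired samples is not given. Deviations of 33 same-numbered pairs of arrays correlated with a median r of -0.01 and a highest r of 0.52, over 0.1 in 7. In 219 pairs with different numbers the median was 0.00 and the highest 0.61, over 0.1 in 57. These pairs mix all tissues and sizes, so they cannot decide whether anthers and buds of the same size were paired. The block is given only as a check. Over the 47 results of 17 named members under these alternatives, a call was lost in 47 cases and gained in 8, and none reversed. The other 1118 stayed on the same side of the threshold, including results with no call to lose. With 3 arrays per group, and only 42 to 55 members above background on an anther array, small differences at low levels are not measurable.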
